A study of Mus musculus with 12 samples.

Results

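The effect of losing IL-33 on the contrast-injured mouse kidney was set against the effect of losing PAD4, gene by gene. For each gene the change in knockout kidneys relative to wild-type kidneys of the same set was taken on the log2(FPKM + 1) scale, and the PAD4 change was subtracted from the IL-33 change (FPKM counts fragments per kilobase of transcript and scales them to all mapped fragments). The members are the 13010 genes, of 35536 listed in either of the 2 deposited tables, whose mean FPKM was 0.5 or more in both. All 12 libraries of the series enter, 3 in each of 4 groups: wild-type C57BL/6 and Padi4 knockout kidneys of a first set, and wild-type C57BL/6 and Il33 knockout kidneys of a second. Every animal was male, 8 weeks old, and had lost a kidney to surgery 3 weeks before the contrast protocol. All then went without water for 24 h. Furosemide, which blocks salt uptake in the loop of Henle, was given 20 min ahead of the contrast agent iodixanol, injected into the tail vein, and the kidney was taken 24 h later. No group without contrast injury is among them, so each value compares injured kidneys with injured kidneys. The labels call the sets batch 1 and batch 2, and each knockout was in its own batch only, so in the difference the knocked-out gene and the batch cannot be told apart. Near the limit on level, Pdxp, Cenpo and Apobr were just inside (0.50003, 0.50003 and 0.500206 FPKM in the table where each is lower), and Gm37116, Gm13127 and Acaca were just outside.

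PAD4 is a peptidylarginine deiminase that converts arginine to citrulline in histones, and it is known for its part in the release of extracellular traps by neutrophils. IL-33 is a cytokine of the IL-1 family that is held in nuclei of barrier and stromal cells, is released when they are damaged, and signals through the receptor ST2 on immune cells. The proximal tubule, which makes up most of the kidney cortex, fuels its transport mainly by oxidising fatty acids in mitochondria and peroxisomes, and loses much of that programme when it is injured.

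The libraries differed between the sets in ways that touch every result. FPKM summed to 700601 to 812981 per library in the first table, with 52.0% to 60.0% from mitochondrially encoded genes, and to 385124 to 420279 in the second, with 24.1% to 29.2%. Levels were therefore compared only within a table, and the sequencing depth is unknown from FPKM. The median residual SD of a gene was 0.254 on the log2 scale in the PAD4 table and 0.165 in the IL-33 table. Of the 11 markers of proximal tubule, thick ascending limb, distal tubule, collecting duct, podocyte and endothelium, 10 had FPKM above 0 in every library. Markers of colon summed to 964 to 1561 FPKM in wild-type and 235 to 546 FPKM in PAD4 knockout libraries of the first set. In the second set they summed to 172 to 436 and 117 to 125 FPKM in wild-type and labelled IL-33 knockout libraries. Krt20, which injured tubules express too, gave 349, 56.1 and 227 FPKM of those wild-type sums and 0.366, 0.359 and 0.239 FPKM of the knockout sums. Markers of lung summed to 485 to 1034 and 420 to 924 FPKM in wild-type and knockout libraries of the first set. In the second they ran the other way, at 383 to 609 and 825 to 1098 FPKM. Of the 23 colon markers all were listed for the first set, but Cdx1, Cdx2, Fabp2, Mptx1, Phgr1, Retnlb and Zg16 were not listed for the second, nor were the lung genes Scgb1a1, Scgb3a2, Sftpa1 and Sftpc. In bulk tissue, fewer cells of a type and less RNA per cell cannot be told apart.

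The effects of the knockouts differed for 1615 genes, 12.4% of the 13010 tested (limma, adjusted p under 0.05). For 804 of them (6.18%) the IL-33 change lay above the PAD4 change, and for 811 (6.23%) below it. These are called higher and lower from here on. With median-of-ratios scaling the counts were 1229 higher and 1877 lower. Over all genes tested the median difference was -0.02, and 278 called genes differed by 2 or more on the log2 scale. In all 1615 called genes the 3 IL-33 and 3 PAD4 knockout libraries, each as a deviation from its own wild-type mean, did not overlap. The same held for 7026 of all genes tested (54%). The numbers of genes called in each comparison were also unequal. Among these genes 1197 rose (9.2%) and 800 fell (6.15%) in the PAD4 comparison. In the IL-33 comparison 2851 rose (21.9%) and 2304 fell (17.7%). The median residual SD was smaller in the IL-33 table (0.165 against 0.254), so a change of the same size is more readily called there. The counts therefore do not measure how many genes each knockout moved.

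The 1615 differences took several forms. The most frequent was a change called only in the IL-33 comparison: 451 genes called lower fell there and 429 called higher rose there, with no call for PAD4. Another 178 genes rose and 158 fell in the PAD4 comparison with no call for IL-33. In 191 genes (1.47% of those tested) both knockouts were called in opposite directions: 126 fell without PAD4 and rose in labelled IL-33 knockout kidneys, and 65 did the reverse. In 105 genes both changes had the same direction and differed in size, the IL-33 change being the larger in 69 and the PAD4 change in 36. For 103 genes the difference was called and neither change by itself. A further count, 928 genes called in the same direction in both comparisons (7.13%), is taken up after the differences. Across the genes tested, the changes had a Pearson correlation of 0.40 and a Spearman correlation of 0.36, given as a description, since genes are not independent replicates.

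**Figure D1:**
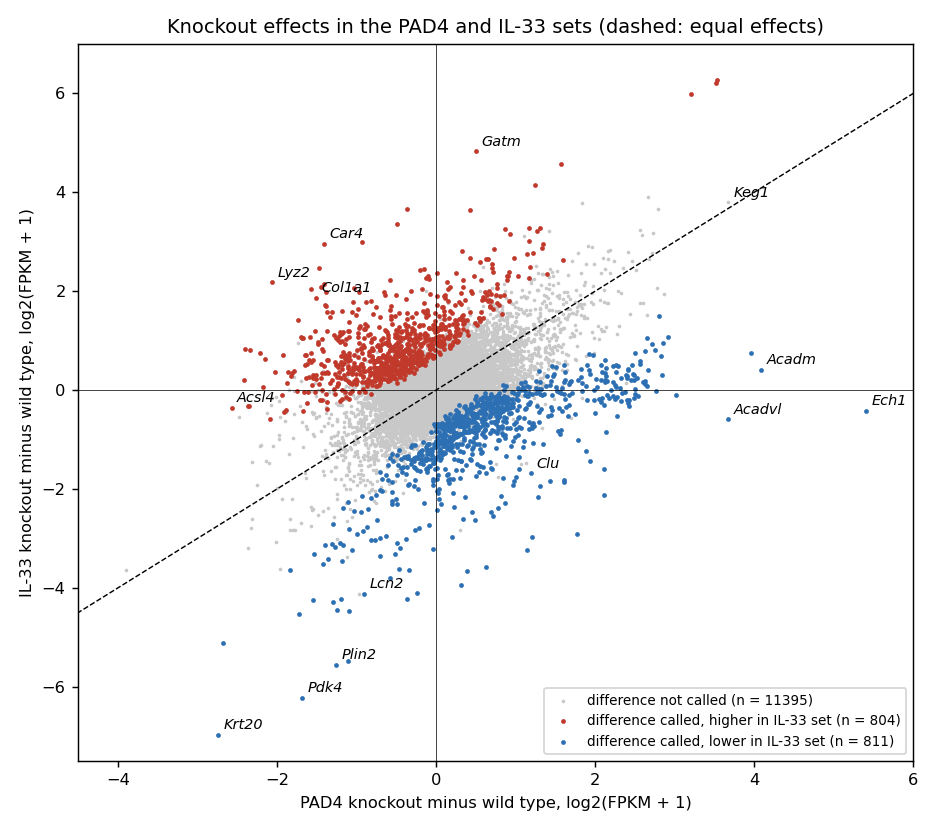
Change of each of the 13010 genes in PAD4 knockout kidneys (x axis) against its change in labelled IL-33 knockout kidneys (y axis), both as knockout minus wild type in log2(FPKM + 1). Points are genes, red where the difference was called higher in the IL-33 set (804), blue where it was called lower (811) and grey where it was not called, and the dashed line marks equal effects. A band of blue points runs to the right near an IL-33 change of 0, with Ech1 and Acadm at its end, and Krt20, Pdk4 and Plin2 lie at the bottom.

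Of the knocked-out genes, only Il33 could be tested for the difference, and it was not called. Il33 (ENSMUSG00000024810) read 3.57, 5.29 and 3.28 FPKM in wild-type libraries against 0.889, 1.58 and 1.28 FPKM in PAD4 knockout libraries, and 1.71, 1.13 and 3.64 FPKM in wild-type libraries against 1.14, 0.616 and 1.02 FPKM in labelled IL-33 knockout libraries. The PAD4 knockout libraries lay apart from their wild types, whereas the labelled IL-33 knockout libraries overlapped theirs. The PAD4 change of -1.15 ± 0.23 (SE) was called (limma adjusted p = 0.00208) and the IL-33 change of -0.65 ± 0.28 (SE) was not (limma adjusted p = 0.099). Their difference was 0.51 ± 0.35 (SE), with a 95% interval of -0.24 to 1.25 and limma adjusted p = 0.376. An exact two-sided permutation test over the 400 relabellings within the tables gave p = 0.495, where the smallest possible was 0.005. Since Il33 transcript remained at a level that overlapped wild type, these libraries are called labelled IL-33 knockout.

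Padi4 did not reach the level required in the second table, where it was at 0 to 0.0220 FPKM. In the first it read 0.704, 1.06 and 1.67 FPKM in wild-type libraries against 0.217, 0.497 and 0.187 FPKM in PAD4 knockout libraries, so the groups did not overlap. The other PAD enzymes, the IL-33 receptor chains and their signalling proteins gave 7 genes tested in both tables, of which 0 were called, with a median difference of 0.00. By unadjusted p under 0.05, 2 of the 7 passed. The smallest p was that of Il18, a cytokine related to IL-33 (1.00 ± 0.36 (SE), limma adjusted p = 0.0825). Without PAD4 knockout library 2 or wild-type library 1 of the PAD4 set it was called (limma adjusted p = 0.00619 and 0.0423), as it was with array weights (0.00856). Il1rl1, which encodes ST2, was at 0 to 0.0609 FPKM in the 12 libraries and was not tested.

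**Figure D2:**
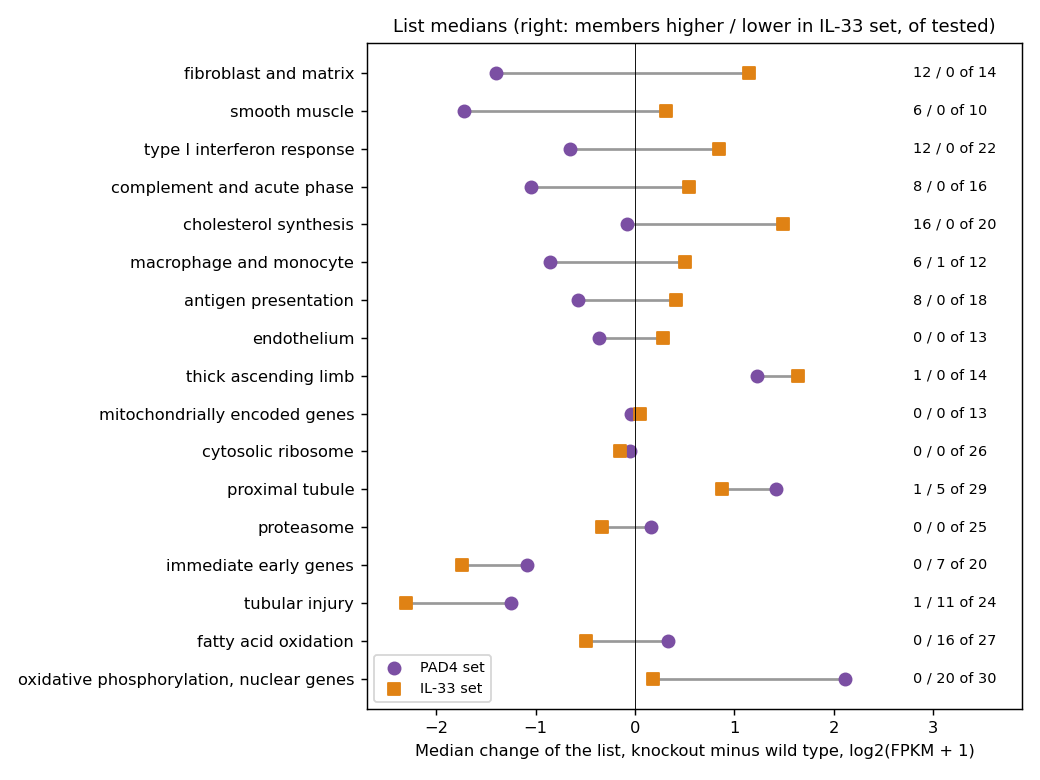
Median change of the tested members of 17 gene lists in the PAD4 set (circles) and in the labelled IL-33 knockout set (squares), as knockout minus wild type in log2(FPKM + 1), with the numbers of members called higher and lower at the right. Matrix, smooth muscle, interferon and complement lists have the square to the right of 0 and the circle to the left, and the widest gap with the circle to the right is that of oxidative phosphorylation.

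Nuclear genes of oxidative phosphorylation, which encode most subunits of the respiratory chain, differed in one direction. Of 30 tested members 20 were called lower and 0 higher, with a median difference of -1.75. The gap came from the PAD4 set, where 22 rose and 0 fell (median change 2.11). In the IL-33 set 13 rose and 0 fell, by less (median change 0.18). Uqcrq (ENSMUSG00000044894), a small subunit of complex III, read 31.01, 29.6 and 46.01 FPKM in wild-type libraries against 283, 132 and 178 FPKM in PAD4 knockout libraries. In the second set it read 80.8, 98.98 and 70.3 FPKM in wild-type libraries against 70.02, 74.2 and 71.3 FPKM in labelled IL-33 knockout libraries. All PAD4 knockout values lay above their wild types, and the groups of the second set overlapped. The difference was -2.60 ± 0.37 (SE), limma adjusted p = 0.000725. Ndufa1 and Ndufb3, accessory subunits of complex I, differed by -2.76 ± 0.41 (SE) and -2.65 ± 0.39 (SE) (limma adjusted p = 0.00086 and 0.000829).

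The list did not move as a block. Cox5a, a nuclear subunit of cytochrome oxidase, read 18.7, 24.7 and 27.6 FPKM in wild-type libraries against 40.7, 15.8 and 25.02 FPKM in PAD4 knockout libraries, which overlapped, and its difference was 0.07 ± 0.38 (SE). Sdha, the flavoprotein of complex II, differed by 0.67 ± 0.30 (SE) and was not called, while Sdhb, the iron-sulfur protein of the same complex, was called lower by -2.03 ± 0.42 (SE). These 3 were chosen after their values were seen. The 20 called members had a median transcript length of 1003.5 bases in the GENCODE annotation, and the 10 not called one of 1920 bases. The 13 protein-coding genes of the mitochondrial genome, which encode the other subunits of these complexes, had 0 called and a median difference of 0.00. By unadjusted p under 0.05, 1 of the 13 passed.

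Length went with the difference over all genes as well. Of the 2272 genes in the shortest quintile of transcript length, 10.6% were called lower and 5.63% higher, against 2.03% and 6.78% of the 2271 in the longest. In the PAD4 comparison 13.2% of the shortest and 4.14% of the longest quintile rose. Lengths were found for 11352 of the 13010 genes, and their part in the results was not tested. The 26 genes of the cytosolic ribosome had a median length of 1014.5 bases. Of these, 0 were called (median difference -0.12, and 0 at an unadjusted p under 0.05).

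NRF1 is a transcription factor known to act on many nuclear genes of the respiratory chain. Its motif GCGCNTGCGC was searched on both strands of the 250 bases before each transcription start given by RefSeq (GRCm38.p6). It was present in 4 of the 20 windows found for 19 members of the list (20%) and in 3.73% of all 32817 windows. The window of Cox6a1, which encodes another cytochrome oxidase subunit and has the motif at more than 1 place, is shown with the motif in capitals, 5′ to 3′ on the minus strand (chr5:115348959-115349208).
Cox6a1: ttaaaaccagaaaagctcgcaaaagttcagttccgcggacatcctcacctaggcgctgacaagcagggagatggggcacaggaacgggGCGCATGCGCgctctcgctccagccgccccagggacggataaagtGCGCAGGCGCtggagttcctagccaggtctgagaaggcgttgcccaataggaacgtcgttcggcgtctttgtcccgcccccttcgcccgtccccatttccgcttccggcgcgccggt
Cox6a1 was called lower by -2.65 ± 0.39 (SE) (limma adjusted p = 0.000871), with 81.4, 67.01 and 90.2 FPKM in wild-type libraries against 762, 299.6 and 431 FPKM in PAD4 knockout libraries. It read 609, 743 and 561 and 567, 614 and 575 FPKM in wild-type and labelled IL-33 knockout libraries of the second set. Sdha and Sdhd, which hold the motif too, were not called. With the motif in only 4 windows, its relation to the call cannot be read. A match is a description of the letters in the window only.

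**Figure D3:**
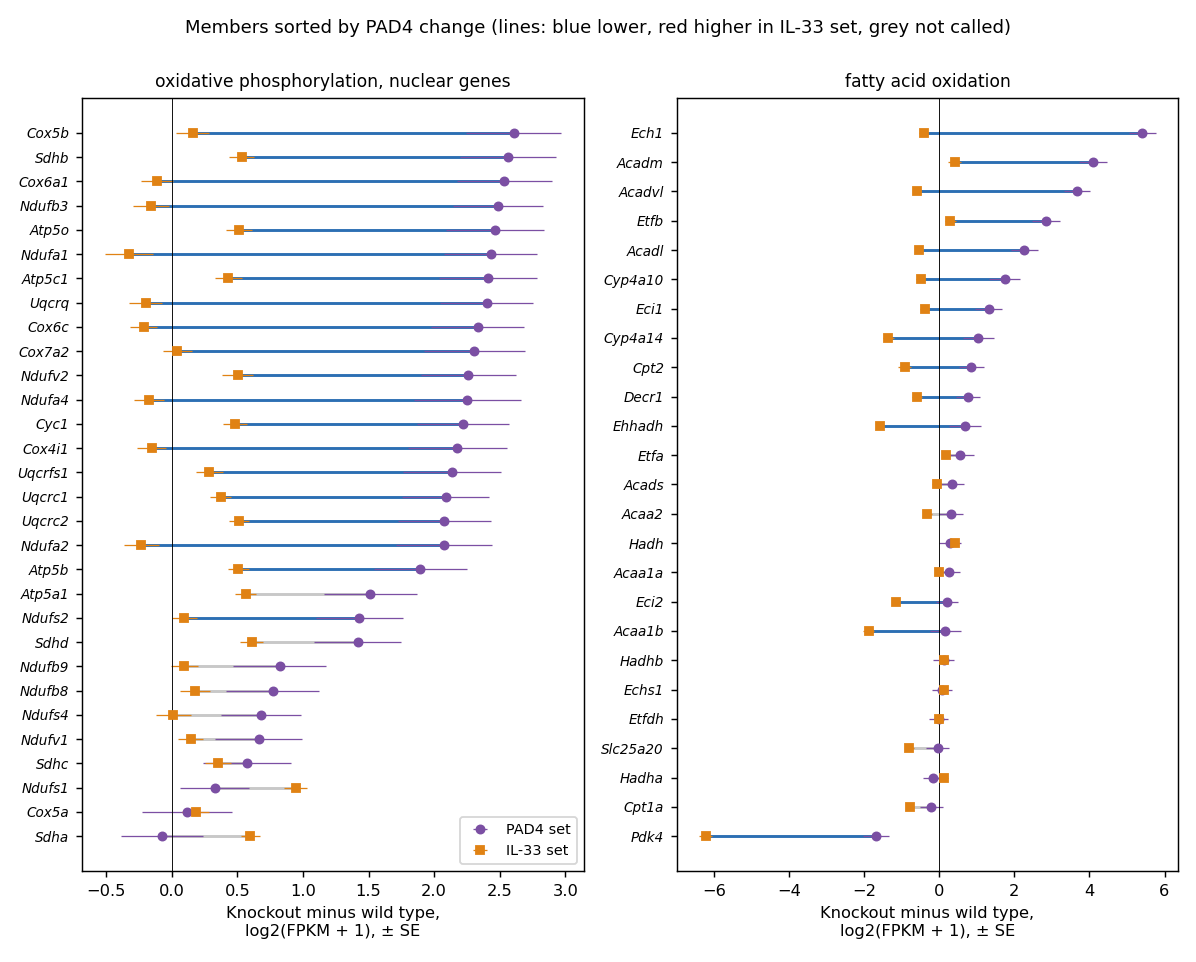
Change ± SE of the 30 tested members of the oxidative phosphorylation list (left) and of 25 of the 27 of the fatty acid oxidation list (right) in the PAD4 set (circles) and the labelled IL-33 knockout set (squares), in log2(FPKM + 1). Blue lines join the changes of genes whose difference was called lower and grey lines those not called. On the left the circles spread from about 0 to above 2 while the squares stay between -0.33 and 0.94. On the right Pdk4 stands apart through the square.

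Fatty acid oxidation held the gene with the largest difference of all. Of 27 tested members 16 were called lower and 0 higher (median difference -1.70), and they fell into groups. Ech1 (ENSMUSG00000053898), an enoyl-CoA isomerase of mitochondria and peroxisomes, read 6.62, 6.82 and 7.17 FPKM in wild-type libraries against 567, 219.7 and 298 FPKM in PAD4 knockout libraries. It read 206, 255 and 191 FPKM in wild-type libraries against 161, 162 and 161 FPKM in labelled IL-33 knockout libraries. Neither pair of groups overlapped, and the changes had opposite signs. The difference was -5.82 ± 0.39 (SE) (limma adjusted p = 4.03e-06). The very long-chain acyl-CoA dehydrogenase gene Acadvl, whose enzyme takes the first step of mitochondrial oxidation, did the same, with a rise of 3.68 and a change that fell by 0.59 (difference -4.27 ± 0.38 (SE), limma adjusted p = 2.98e-05).

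Pdk4 (ENSMUSG00000019577) encodes a mitochondrial kinase that inhibits pyruvate dehydrogenase when fat is burnt. It read 34.8, 29.8 and 33.1 FPKM in wild-type libraries against 12.4, 13.8 and 4.74 FPKM in PAD4 knockout libraries. In the second set it read 453, 341 and 359 FPKM in wild-type libraries against only 3.4001, 3.82 and 5.33 FPKM in labelled IL-33 knockout libraries. It fell in both sets without overlap, by far more in the second (difference -4.54 ± 0.42 (SE), limma adjusted p = 3.17e-05).

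Other members were not called. Hadha and Hadhb, the subunits of the mitochondrial trifunctional protein, and Echs1, the short-chain enoyl-CoA hydratase, chosen after their values were seen, had differences of 0.29, 0.01 and 0.05, with 95% intervals of -0.30 to 0.88, -0.63 to 0.65 and -0.61 to 0.70. The direct repeat AGGNCANAGGNCA, bound by PPAR and HNF4 factors, was found on either strand in 0 of 21 windows before the starts of the genes of the list and in 0.338% of all windows. A motif that rare would be missing from most sets of 21 windows, so the 0 says little about these genes.

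A score of colon and lung markers was entered as a covariate. It was the mean centred log2 value of the 12 colon and lung markers tested in both tables. Among them are Krt20, Car4, Vil1 and Napsa, which kidney tubules express too, and genes whose own difference was called. The score separated the genotypes in both sets, at 0.17 to 0.80 in wild-type and -0.82 to -0.20 in knockout libraries. A call lost with this covariate therefore does not tell RNA of other tissues from the knockout. With the covariate, the members called lower were 8 of 30 for oxidative phosphorylation (median -1.48) and 8 of 27 for fatty acid oxidation (median -1.32). Without the wild-type library 1 of the PAD4 set and the PAD4 knockout library 2, which lie nearest the other genotype in those markers, they were 21 and 16.

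Other fuel pathways were split, beside 6.23% of all genes tested called lower and 6.18% called higher. Of 17 genes of the tricarboxylic acid cycle 4 were called lower, Mdh1, Mdh2 and Pdha1 among them. Mdh1, the cytosolic malate dehydrogenase, read 7.28, 11.6 and 9.87 FPKM in wild-type libraries against 265, 88.2 and 180.4 FPKM in PAD4 knockout libraries, and 189, 225 and 187 FPKM and 339, 322 and 340.4 FPKM in the second set. It rose in both sets, without overlap (difference -3.22 ± 0.44 (SE), limma adjusted p = 0.000592). Of 18 glycolytic genes 4 were called lower and 3 higher. The lactate dehydrogenase genes Ldha and Ldhb were called lower (-2.15 ± 0.29 (SE) and -2.17 ± 0.41 (SE)), as was aldolase A, Aldoa (-2.06 ± 0.30 (SE)), and the phosphofructokinase subunit genes Pfkm and Pfkl were called higher by 1.14 and 1.34.

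**Figure D4:**
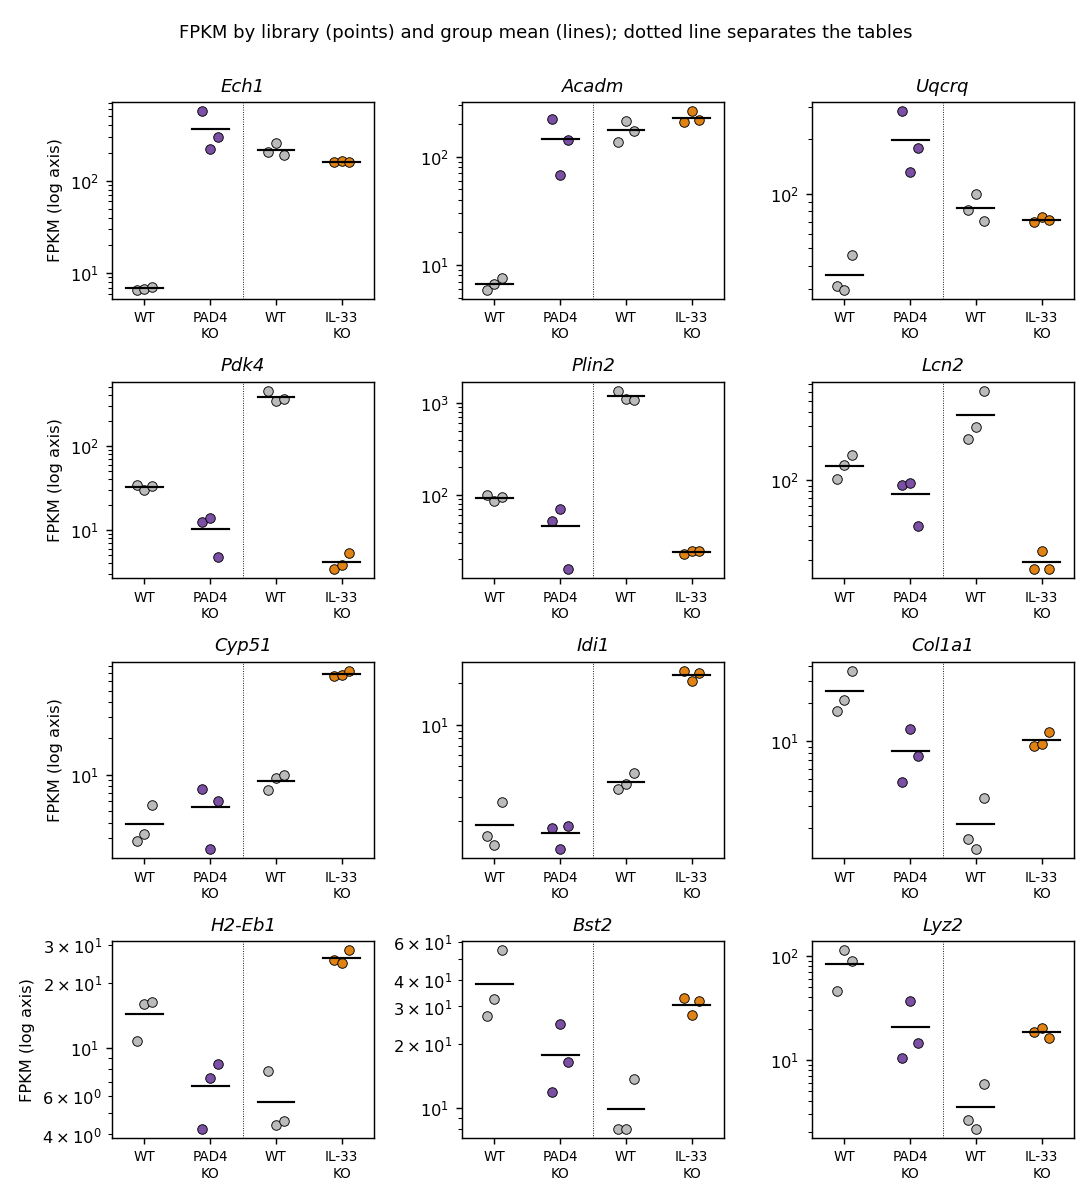
FPKM of 12 genes in each library (points) with the group mean (lines), on logarithmic axes with the range set for each gene. Within each panel the dotted line separates the PAD4 set (left) from the labelled IL-33 knockout set (right), and levels are to be compared only on the same side of it. Ech1, Acadm and Uqcrq separate by genotype in the PAD4 set, Pdk4, Plin2, Lcn2, Cyp51 and Idi1 most clearly in the IL-33 set, and Col1a1, H2-Eb1, Bst2 and Lyz2 in opposite directions in both.

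Cholesterol synthesis went the other way. Of 20 tested genes of the mevalonate and sterol pathway and its regulators, 16 were called higher and 0 lower, with a median difference of 1.33. Here the IL-33 comparison moved, with 18 rises and a median of 1.48, while the PAD4 median was -0.08. Idi1 (ENSMUSG00000058258), the isomerase that makes the activated isoprenoid unit, read 1.56, 1.35 and 2.75 FPKM and 1.804, 1.26 and 1.86 FPKM in wild-type and PAD4 knockout libraries, which overlapped. It read 3.43, 3.71 and 4.46 FPKM in wild-type libraries against 24.5, 20.5 and 23.6 FPKM in labelled IL-33 knockout libraries, which did not (difference 2.40 ± 0.26 (SE), limma adjusted p = 0.000143). Mvk, mevalonate kinase, differed by 1.81 ± 0.26 (SE) (limma adjusted p = 0.000796).

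The pathway did not move as a block. Hmgcs1, the synthase of an early step, rose in both sets, by 2.78 and 2.06, and its difference of -0.72 ± 0.45 (SE) was not called (limma adjusted p = 0.332). It was chosen after its values were seen. The sterol regulatory element TCACNCCAC, searched on both strands, was in 1 of 17 windows of 14 members (5.88%), that of Hmgcs1, and in 1.05% of all windows. With colon and lung markers as a covariate 12 of the 20 were called higher.

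Genes of connective tissue moved in opposite directions in the 2 knockouts. Of 14 fibroblast and matrix genes 12 were called higher and 0 lower, with a median difference of 2.54. They fell without PAD4 (12 of 14, median -1.40) and rose in labelled IL-33 knockout kidneys (11 of 14, median 1.15). Col1a1 (ENSMUSG00000001506), a chain of type I collagen, read 17.5, 21.2 and 36.6 FPKM in wild-type libraries against 4.697, 12.6 and 7.55 FPKM in PAD4 knockout libraries. It read 1.65, 1.36 and 3.504 FPKM in wild-type libraries against 9.15, 9.44 and 11.9 FPKM in labelled IL-33 knockout libraries. No group overlapped its own wild type, and the changes ran in opposite directions (difference 3.38 ± 0.46 (SE), limma adjusted p = 0.000599). Col6a1, of the microfibrillar type VI collagen, differed by 3.55 ± 0.41 (SE) and Col1a2 by 3.08 ± 0.42 (SE) (limma adjusted p = 0.000208 and 0.000593).

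Smooth muscle genes differed mainly through the PAD4 set: 6 of 10 were called higher and 0 lower (median 1.79), and the list summed to 499.6 to 1071 FPKM in wild-type and 101 to 351 FPKM in PAD4 knockout libraries. In the second set it summed to 70.6 to 105 FPKM and 94.2 to 109.9 FPKM. The first pair of ranges did not overlap and the second did. Myl9, a light chain of smooth muscle myosin, was called higher by 2.75 ± 0.47 (SE) (limma adjusted p = 0.00198), and Des, desmin, by 2.16 ± 0.54 (SE) (limma adjusted p = 0.0174, 0.164 with colon and lung markers as a covariate, 0.0598 with no limit on level, and 0.0506 without wild-type library 3 of the PAD4 set). With colon and lung markers as a covariate 1 of 10 smooth muscle genes and 9 of 14 matrix genes were called higher. The smooth muscle count was 3 without PAD4 knockout library 1, wild-type library 2 of the IL-33 set, or labelled IL-33 knockout library 1 or 3. It was 2 without wild-type library 3 of the PAD4 set, 1 with no limit on level, and 10 without both libraries nearest the other genotype in colon and lung markers. The part of those markers in these results was not tested.

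Genes that present antigen by MHC class II were higher together. Of 18 antigen presentation genes 8 were called higher and 0 lower (median 0.86), and the class II genes among them account for 6 of the 8. H2-Eb1 (ENSMUSG00000060586), a class II beta chain, read 10.8, 16.04 and 16.3 FPKM in wild-type libraries against 4.25, 7.27 and 8.47 FPKM in PAD4 knockout libraries. It read 7.88, 4.44 and 4.596 FPKM in wild-type libraries against 25.5, 24.8 and 28.3 FPKM in labelled IL-33 knockout libraries. The knockouts lay below wild type in the first set and above it in the second, with no overlap (difference 3.10 ± 0.35 (SE), limma adjusted p = 0.000204). Its alpha-chain partner H2-Aa differed by 2.83 ± 0.33 (SE) and Cd74, the invariant chain, by 3.36 ± 0.40 (SE) (Cd74 overlaps Mir5107 in the annotation). Class I heavy chain genes were not called: H2-K1 differed by 0.42 ± 0.28 (SE) and H2-D1 by 0.24 ± 0.31 (SE), and both share sequence with related class I genes, so their values are uncertain.

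Complement and macrophage genes followed. Of 16 complement and acute phase genes 8 were called higher and 0 lower (median 1.48). C3, on which all complement pathways converge, read 56.2, 42.04 and 90.1 FPKM in wild-type libraries against 13.3, 43.6 and 8.56 FPKM in PAD4 knockout libraries, which overlapped. It read 10.3, 10.3 and 15.99 FPKM in wild-type libraries against 28.2, 30.2 and 45.1 FPKM in labelled IL-33 knockout libraries, which did not (difference 3.16 ± 0.62 (SE), limma adjusted p = 0.00478, and 0.0567 with colon and lung markers as a covariate). C1qa, of the C1q molecule that tissue macrophages make, was called higher by 2.63 ± 0.40 (SE) (limma adjusted p = 0.00106). Of 12 macrophage and monocyte genes 6 were called higher and 1 lower. Lyz2, a lysozyme of myeloid cells, went from 46.4, 114 and 89.5 FPKM to 10.3, 37.3 and 14.5 FPKM without PAD4 and from 2.61, 2.16 and 5.82 FPKM to 18.5, 20.5 and 16.3 FPKM in the labelled IL-33 knockout set. It fell in one set and rose in the other without overlap (difference 4.25 ± 0.59 (SE), limma adjusted p = 0.000607).

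Adgre1, which encodes the macrophage marker F4/80, read 0.771, 1.296 and 1.65 FPKM in wild-type libraries against 0.304, 0.595 and 0.489 FPKM in PAD4 knockout libraries. It read 0.163, 0.118 and 0.198 and 1.396, 1.69 and 1.44 FPKM in wild-type and labelled IL-33 knockout libraries, and it differed in the same sense (1.71 ± 0.22 (SE), limma adjusted p = 0.000374). The single member called lower was Cd14, a coreceptor for endotoxin that tubules also make when stressed. It read 15.2, 21.02 and 18.3 FPKM and 4.696, 14.5 and 4.25 FPKM in the first set, and 134, 88.4 and 97.7 FPKM and 4.72, 3.49 and 5.16 FPKM in the second. It fell in both sets, further in the second (difference -2.99 ± 0.47 (SE), limma adjusted p = 0.0012). Immunoglobulin genes were higher: Ighm, Jchain and Igkc were 3 of the 5 lymphocyte genes tested, by 2.07, 2.19 and 2.66. With colon and lung markers as a covariate, 2 macrophage genes, 5 complement genes and 6 antigen presentation genes were called higher, and 1 complement and 1 macrophage gene lower.

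Genes of neutrophils, the cells in which PAD4 is best known, were few. Of 21 listed symbols 8 passed the limit on level in both tables, and 1, Lcn2, was called (lower). S100a8 and S100a9, abundant neutrophil proteins, had differences of 1.90 ± 0.91 (SE) and 2.05 ± 0.85 (SE) with limma adjusted p = 0.192 and 0.133. S100a9 read 26.9, 105 and 18.5 FPKM in wild-type libraries against 6.25, 29.9 and 5.29 FPKM in PAD4 knockout libraries, and 3.84, 1.23 and 3.003 FPKM and 2.45, 4.61 and 2.92 FPKM in the second set, so the groups overlapped in both. Without PAD4 knockout library 2 both were called higher (limma adjusted p = 0.00895 for S100a8 and 0.00951 for S100a9), and the list had 5 called higher and 1 lower. Without both libraries nearest the other genotype in colon and lung markers it had 4 higher and 1 lower, with array weights 5 and 2, and with those markers as a covariate 0 and 2. Ly6g, the surface marker of mouse neutrophils, was at 4.67, 4.64 and 9.88 FPKM in wild-type libraries against 1.38, 3.12 and 1.704 FPKM in PAD4 knockout libraries. It was listed at 0 in 5 of the 6 libraries of the second set, and was not tested there.

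The type I interferon response also separated the knockouts. Of 22 interferon-stimulated genes 12 were called higher and 0 lower (median 1.62). 8 fell without PAD4 (median -0.65) and 12 rose in labelled IL-33 knockout kidneys (median 0.85). The interferon-stimulated response element, through which the factor ISGF3 turns such genes on, was searched as GAAANNGAAA on both strands of the same windows. It was in 7 of 19 windows of 17 members (36.8%) and in 2.97% of all 32817. Windows of 3 called members are shown 5′ to 3′ on the minus strand, with overlapping matches joined in capitals. They are those of Bst2 (chr8:71537473-71537722), Isg15 (chr4:156200819-156201068) and Oas1a (chr5:120907526-120907775), from RefSeq on GRCm38.p6.
Bst2: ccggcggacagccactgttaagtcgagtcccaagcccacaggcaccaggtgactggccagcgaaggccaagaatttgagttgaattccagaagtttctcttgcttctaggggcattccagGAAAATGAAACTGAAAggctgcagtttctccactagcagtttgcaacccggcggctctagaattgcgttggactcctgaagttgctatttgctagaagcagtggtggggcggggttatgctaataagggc
Isg15: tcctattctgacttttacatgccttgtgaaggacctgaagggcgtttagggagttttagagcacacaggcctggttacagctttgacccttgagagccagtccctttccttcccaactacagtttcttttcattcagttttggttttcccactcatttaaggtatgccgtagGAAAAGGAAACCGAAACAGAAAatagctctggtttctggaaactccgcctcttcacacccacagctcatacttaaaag
Oas1a: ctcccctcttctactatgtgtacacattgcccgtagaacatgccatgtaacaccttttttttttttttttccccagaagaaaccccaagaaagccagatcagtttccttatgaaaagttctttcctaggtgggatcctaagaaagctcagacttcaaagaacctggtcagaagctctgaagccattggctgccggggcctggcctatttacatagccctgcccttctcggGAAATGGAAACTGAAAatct
Bst2 (ENSMUSG00000046718), or tetherin, which holds budding virus at the cell surface, read 26.9, 32.6 and 55.1 FPKM in wild-type libraries against 11.9, 24.7 and 16.4 FPKM in PAD4 knockout libraries. It read 7.99, 7.99 and 13.6 FPKM in wild-type libraries against 32.9, 27.3 and 31.7 FPKM in labelled IL-33 knockout libraries. The knockouts lay below all wild types in the first set and above all in the second (difference 2.64 ± 0.41 (SE), limma adjusted p = 0.00126). Isg15, a ubiquitin-like modifier, read 11.6, 29.9 and 13.1 FPKM and 5.33, 8.95 and 7.85 FPKM in the first set and 1.22, 1.92 and 8.17 FPKM and 11.4, 7.64 and 8.77 FPKM in the second. There wild-type library 3 lay among the knockouts. The difference was 2.48 ± 0.61 (SE) (limma adjusted p = 0.0162). Oas1a, a sensor of double-stranded RNA, differed by 2.39 ± 0.47 (SE) (limma adjusted p = 0.00449).

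Members that were not called hold the element too, Ifit3 and Stat2 among them (differences of 1.62 and 0.46). Cmpk2, a mitochondrial nucleotide kinase induced by interferon, was called higher by 1.99 ± 0.38 (SE) (limma adjusted p = 0.00397). The count depended on wild-type library 3 of the IL-33 set, the wild-type library highest in Isg15 and Oas1a there: without it 19 of 22 were called. With colon and lung markers as a covariate 3 were called, and 7 with no limit on level.

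**Figure D5:**
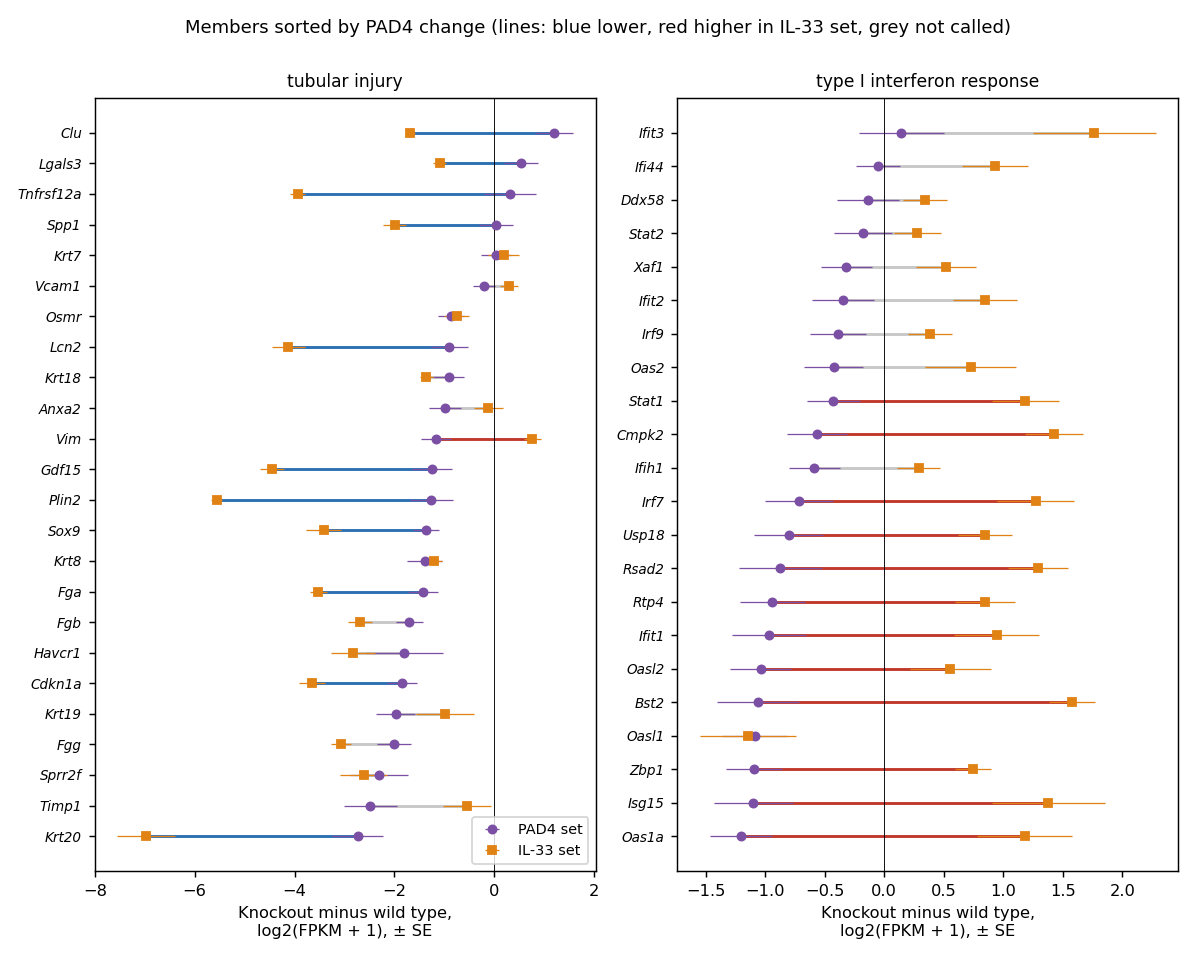
Change ± SE of each tested member of the tubular injury list (left) and the type I interferon list (right) in the PAD4 set (circles) and the labelled IL-33 knockout set (squares), in log2(FPKM + 1). Blue lines join genes called lower, red lines genes called higher and grey lines genes not called. Most injury genes lie left of 0 in both sets with the square further left, and most interferon genes have the circle left and the square right of 0.

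Markers of tubular injury fell in both sets, and further in the labelled IL-33 knockout. Of 24 tested members 16 fell in the PAD4 comparison (median -1.25) and 18 in the IL-33 comparison (median -2.31). The difference was called lower for 11 and higher for 1, with a median of -1.04. Plin2 (ENSMUSG00000028494), which coats lipid droplets, read 100.2, 86.5 and 94.3 FPKM in wild-type libraries against 51.6, 70.4 and 15.5 FPKM in PAD4 knockout libraries. It read 1352, 1097 and 1088 FPKM in wild-type libraries against 22.9, 24.7 and 24.3 FPKM in labelled IL-33 knockout libraries. It fell in both, without overlap, and the knockout values of the second set were close together (difference -4.30 ± 0.54 (SE), limma adjusted p = 0.000365). Krt20, a keratin of injured tubule cells and of colon epithelium, went from 65.9, 47.6 and 59.1 FPKM to 1.87, 23.5 and 8.39 FPKM in the first set. In the second it went from 349, 56.1 and 227 FPKM to 0.366, 0.359 and 0.239 FPKM. Both sets separated by genotype (difference -4.23 ± 0.92 (SE), limma adjusted p = 0.00794).

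Several injury genes had a fall that was called only in the IL-33 comparison, and a called difference. Lcn2, the secreted injury marker NGAL, read 102, 135 and 166 FPKM and 90.2, 95.6 and 39.7 FPKM in the PAD4 set. The knockouts lay below every wild type there, but the change was not called. It read 230.1, 291 and 608 FPKM and 16.5, 24.2 and 16.6 FPKM in the second set. No value overlapped in that set either, and the fall was called (difference -3.22 ± 0.53 (SE), limma adjusted p = 0.00161). Tnfrsf12a, the receptor for the cytokine TWEAK, read 23.5, 20.8 and 28.7 FPKM in wild-type libraries against 25.4, 104 and 10.02 FPKM in PAD4 knockout libraries, and 219, 142 and 179 FPKM and 9.72, 10.7 and 11.5 FPKM in the second set. It overlapped in the first set and not in the second (difference -4.25 ± 0.76 (SE), limma adjusted p = 0.00254). Spp1, osteopontin, behaved likewise (-2.03 ± 0.44 (SE), limma adjusted p = 0.00793, with Gm42793 overlapping it in the annotation). Clu, the secreted chaperone clusterin, rose without PAD4 (1.19) and fell by 1.68 in the labelled IL-33 knockout (limma adjusted p of the difference = 0.00134).

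The most used marker of proximal tubule injury gave no call. Havcr1, or KIM-1, read 24.6, 10.9 and 25.9 FPKM in wild-type libraries against 0.885, 46.9 and 1.15 FPKM in PAD4 knockout libraries, where library 2 exceeded every wild type. It read 84.004, 78.6 and 161 FPKM and 26.9, 12.04 and 7.45 FPKM in the second set, which separated. The difference was -1.03 ± 1.27 (SE) with a 95% interval of -3.74 to 1.69 (limma adjusted p = 0.648). Cdkn1a, the p21 inhibitor of the cell cycle, fell in both sets and was called lower by -1.80 ± 0.41 (SE) (limma adjusted p = 0.0103, and 0.0525 with quantile normalization). Vim, vimentin, which connective tissue expresses as well, was the member called higher (1.93 ± 0.35 (SE)). Without both libraries nearest the other genotype in colon and lung markers, PAD4 knockout library 2 among them, the median of the list was -0.54 and 11 were called lower. With those markers as a covariate it was -2.19 and 12 were called lower.

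Immediate early genes, switched on within minutes of stress, were lower in the same sense: 7 of 20 were called lower and 0 higher (median -0.70), with 14 falls in the PAD4 and 20 in the IL-33 comparison. Myc, the growth-promoting transcription factor, read 3.84, 2.99 and 4.93 FPKM in wild-type libraries against 5.49, 15.6 and 3.76 FPKM in PAD4 knockout libraries, which overlapped. It read 18.8, 15.9 and 21.3 FPKM in wild-type libraries against 2.26, 2.41 and 2.399 FPKM in labelled IL-33 knockout libraries, far below (difference -3.26 ± 0.47 (SE), limma adjusted p = 0.000738). Egr1 and Maff differed by -2.81 ± 0.45 (SE) and -2.27 ± 0.37 (SE) (limma adjusted p = 0.00143 and 0.00164). In Fos, Jun and Dusp1 the difference was not called (-0.80, -0.92 and -0.09). The count was 4 without labelled IL-33 knockout library 1 and 4 with quantile normalization.

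Genes of ferroptosis, the iron-dependent death by lipid peroxidation that the series addresses, did not share a direction. Of 26 tested, 7 were called lower and 4 higher, beside 6.23% and 6.18% of all genes tested. Their median of -0.03 changed sign under several settings, rescaling without mitochondrial genes among them. Hmox1 (ENSMUSG00000005413), the haem-degrading enzyme that frees iron, read 64.1, 111 and 58.04 FPKM in wild-type libraries against 61.6, 65.2 and 9.74 FPKM in PAD4 knockout libraries, and 326, 621 and 835 FPKM and 17.9, 25.8 and 29.5 FPKM in the second set. It overlapped in the first set and fell in the second without overlap (difference -3.38 ± 0.79 (SE), limma adjusted p = 0.0117). Acsl4, the synthetase that primes membrane lipids for peroxidation, read 16.01, 45.01 and 20.01 FPKM and 3.84, 4.08 and 2.19 FPKM in the first set and 18.5, 5.18 and 30.8 FPKM and 10.4, 11.1 and 12.2 FPKM in the second. It fell in the first and overlapped in the second, and was called higher (2.21 ± 0.66 (SE), limma adjusted p = 0.042). That call was lost with colon and lung markers as a covariate (limma adjusted p = 0.313) and without any 1 of 8 libraries. Without those libraries the limma adjusted p was 0.0616 to 0.0953.

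The gene of the central defence was not called. Gpx4, the peroxidase that removes lipid hydroperoxides, read 136, 136 and 169 FPKM and 203, 93.2 and 121 FPKM in the first set and 284, 351 and 302 FPKM and 310.5, 376 and 329 FPKM in the second. Knockout and wild type overlapped in both sets, and the 95% interval of the difference was -0.50 to 1.02. With quantile normalization the Gpx4 difference was 0.75 and was called (limma adjusted p = 0.0212). Fth1, the ferritin heavy chain, fell in both sets by amounts whose difference was 0.10 ± 0.28 (SE) (95% interval -0.49 to 0.69). Tfrc, the transferrin receptor that takes up iron, was called higher (1.19 ± 0.30 (SE), limma adjusted p = 0.0171, and 0.131 with colon and lung markers as a covariate). Slc7a11, the cystine importer, did not reach the limit on level in the PAD4 table. It read 0.289, 0.301 and 0.592 FPKM and 0.0601, 0.354 and 0.06098 FPKM there, and 0.562, 0.375 and 0.947 FPKM and 0.0294, 0.000309 and 0.00351 FPKM in wild-type and labelled IL-33 knockout libraries. Gch1, which makes the antioxidant tetrahydrobiopterin, was called lower (-1.36 ± 0.32 (SE), limma adjusted p = 0.0128), and the lipoxygenase gene Alox12 higher (0.76 ± 0.18 (SE), limma adjusted p = 0.0118). The Gch1 difference was -0.85 with quantile normalization (limma adjusted p = 0.0989), and its call was also lost with a pseudocount of 0.1 (0.0686).

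Other death pathways gave single genes. Of 19 genes of pyroptosis, necroptosis and apoptosis 3 were called higher and 2 lower. Over all genes tested 6.18% were called higher and 6.23% lower. Bax, which permeabilises mitochondria in apoptosis, read 9.67, 11.6 and 14.996 FPKM in wild-type libraries against 60.6, 61.9 and 38.8 FPKM in PAD4 knockout libraries, and 24.5, 36.6 and 29.4 FPKM and 23.6, 27.9 and 26.9 FPKM in the second set. It rose in the first set and overlapped in the second (difference -2.24 ± 0.32 (SE), limma adjusted p = 0.000725), although Gm45808 overlaps it in the annotation. Bcl2l1, its inhibitor, was also called lower (-1.12 ± 0.29 (SE)). Gsdmd, the pore-forming gasdermin D, and Zbp1, a nucleic acid sensor of necroptosis, were called higher (1.70 ± 0.34 (SE) and 1.84 ± 0.31 (SE), limma adjusted p = 0.00559 and 0.00175). Of 18 genes of endoplasmic reticulum and integrated stress 3 were called lower, Trib3, Chac1 and Ddit3 (-2.13 ± 0.36 (SE), -1.78 ± 0.46 (SE) and -1.74 ± 0.36 (SE)). The Chac1 call was lost with no limit on level (limma adjusted p = 0.0656), with a spread for each table (0.0711) and without labelled IL-33 knockout library 3 (0.0503). Of 17 heat shock genes 0 were called, with 3 at an unadjusted p under 0.05.

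Most proximal tubule genes rose in each comparison. Of 29 proximal tubule genes 20 rose without PAD4 and 19 in the labelled IL-33 knockout, beside 9.2% and 21.9% of all genes tested. The difference was called lower for 5 and higher for 1 of the 29, beside 6.23% and 6.18% of all genes. Its median was -0.30, turning to 0.09 with colon and lung markers as a covariate. Slc34a1 (ENSMUSG00000021490), the main phosphate transporter of this segment, read 4.73, 3.61 and 7.56 FPKM in wild-type libraries against 50.5, 18.1 and 58.96 FPKM in PAD4 knockout libraries, and 97.1, 75.6 and 74.2 FPKM and 686, 371 and 551 FPKM in the second set. It rose in both without overlap, and the 95% interval of the difference was -1.15 to 1.11. The member called higher was Gatm, the first enzyme of creatine synthesis. It read 0.438, 0.935 and 0.948 FPKM and 1.02, 1.56 and 2.01 FPKM in the first set, and 3.82, 3.77 and 4.47 FPKM and 177, 94.6 and 169 FPKM in the second. It was low and not called in the first and rose in the second (difference 4.32 ± 0.33 (SE), limma adjusted p = 9.09e-06).

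Pck1, the gluconeogenic carboxykinase of this segment, went from 55.7, 119.7 and 83.1 FPKM to 455, 135 and 259.6 FPKM without PAD4 and from 504, 1166 and 669 FPKM to 263, 172 and 177 FPKM in the second set. It rose in the first and fell in the second, with no overlap in either (difference -3.47 ± 0.58 (SE), limma adjusted p = 0.00178). Kap, the androgen-regulated kidney protein, read 5061, 4743 and 7975 FPKM and 24447, 9626 and 15313 FPKM in the first set and 14023, 15661 and 11465 FPKM and 10286, 10205 and 7985 FPKM in the second. The opposite shifts gave a difference of -1.94 ± 0.42 (SE) (limma adjusted p = 0.00777, and 0.0816 with colon and lung markers as a covariate).

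Further along the tubule each list gave 0 to 3 calls, beside 12.4% of all genes called in either direction. In the thick ascending limb 1 of 14 was called, Ptger3, a prostaglandin receptor (1.78 ± 0.50 (SE), limma adjusted p = 0.0296). That call was lost in 8 alternatives (limma adjusted p of 0.0523 to 0.128), among them leaving out wild-type library 3 of the PAD4 set, wild-type library 1 of the IL-33 set or labelled IL-33 knockout library 2. In the distal convoluted tubule 2 of 10 were called higher. These were Slc8a1, the sodium-calcium exchanger (2.35 ± 0.24 (SE)), and the kinase Wnk1, which controls salt transport (1.03 ± 0.26 (SE)). The Wnk1 call was lost with colon and lung markers as a covariate (limma adjusted p = 0.110), with a pseudocount of 0.1 (0.0563), and without wild-type library 2 of the PAD4 set (0.0504) or labelled IL-33 knockout library 3 (0.0536). In intercalated cells, which move acid and base, 2 of 14 were called higher and 1 lower. Slc4a1, the chloride-bicarbonate exchanger of the acid-secreting type, differed by 2.38 ± 0.46 (SE) and the carbonic anhydrase gene Car12 by 1.29 ± 0.33 (SE), while Slc4a9, of the base-secreting type, differed by -1.26 ± 0.27 (SE). The Car12 call was lost with the covariate (limma adjusted p = 0.138), with a pseudocount of 0.1 (0.0514) and without labelled IL-33 knockout library 3 (0.0526). Of 7 podocyte genes Clic3, a chloride channel protein, and Nphs1, nephrin, were called higher (2.22 ± 0.31 (SE) and 0.91 ± 0.23 (SE)). The Nphs1 call was lost with the covariate (limma adjusted p = 0.0816), with a pseudocount of 0.1 (0.0516), and without labelled IL-33 knockout library 2 (0.0502) or 3 (0.0643). Principal cells (12), endothelium (13), proteasome (25) and circadian clock (14) had 0 called, with 1, 2, 11 and 1 at an unadjusted p under 0.05.

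Several further genes had large differences. Among genes called higher, Car4 (ENSMUSG00000000805), a membrane carbonic anhydrase of proximal tubule and colon that is on the colon list, led. It read 32.6, 40.1 and 57.5 FPKM in wild-type libraries against 12.8, 18.3 and 15.2 FPKM in PAD4 knockout libraries, and 5.595, 7.79 and 5.75 FPKM and 58.6, 56.98 and 52.1 FPKM in the second set. No group overlapped its wild type, and the directions were opposite (difference 4.36 ± 0.31 (SE), limma adjusted p = 4.8e-06). Hao2, a peroxisomal hydroxyacid oxidase, differed by 4.03 ± 0.36 (SE), through its rise in the second set from 4.66, 4.69 and 5.29 FPKM to 71.3, 72.3 and 76.1 FPKM. Mdk, the heparin-binding growth factor midkine, and Ifi27l2a, an interferon-inducible protein, differed by 3.94 ± 0.43 (SE) and 3.85 ± 0.56 (SE), and Plac8, a protein of immune and epithelial cells, by 2.95 ± 0.52 (SE).

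Among genes called lower and not yet named, Cyp2a5, a xenobiotic-metabolising cytochrome P450, read 74.3, 78.5 and 91.9 FPKM in wild-type libraries against 562, 486 and 79.8 FPKM in PAD4 knockout libraries. It read 914, 843 and 599 FPKM and 97.8, 108 and 99.997 FPKM in the second set. Only PAD4 knockout library 3 lay within its wild-type range (difference -4.69 ± 0.73 (SE), limma adjusted p = 0.00117). Reads of this gene may be shared with near-identical members of its family, so its level is uncertain. Slc25a25, a mitochondrial carrier of adenine nucleotides, rose in the first set and fell in the second (-4.17 ± 0.35 (SE)). Eif4ebp3, a repressor of translation, differed by -4.37 ± 0.51 (SE), with AC115631.1 overlapping it in the annotation. The opposite calls with the largest smaller change included S100a10, an annexin partner, Slc38a3, a glutamine transporter of the proximal tubule, and Dnase1, which degrades extracellular DNA. S100a10 read 41.2, 41.7 and 45.3 FPKM and 165, 164 and 85.8 FPKM in the first set and 147, 136 and 148 FPKM and 37.8, 44.1 and 37.9 FPKM in the second, with no overlap in either. The differences were -3.43 ± 0.33 (SE) for S100a10, -3.37 ± 0.50 (SE) for Slc38a3 and -3.27 ± 0.46 (SE) for Dnase1 (limma adjusted p = 4.32e-05, 0.000901 and 0.000702).

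Against these stood the 928 genes called in the same direction in both knockouts, 655 rising and 273 falling. The 5 with the smallest difference in each direction show how closely single genes could match. Slc13a3, a proximal tubule transporter of dicarboxylates, read 1.66, 2.37 and 2.28 FPKM in wild-type libraries against 15.4, 7.95 and 10.7 FPKM in PAD4 knockout libraries, and 14.6, 24.3 and 20.7 FPKM and 87.7, 66.99 and 81.99 FPKM in the second set. It rose by 1.96 and 1.96, and the 95% interval of the difference was -0.72 to 0.72. For Cdh16, the kidney-specific cadherin, the interval was -0.67 to 0.68, for Slc22a18 -0.78 to 0.79, for Cideb, a lipid droplet protein, -0.89 to 0.92 and for Scly, selenocysteine lyase, -0.58 to 0.54. Among shared falls it was -0.89 to 0.90 for Nfkbia, the inhibitor of NF-kB that is itself its target, -0.77 to 0.74 for Tubb5, a beta-tubulin, -0.71 to 0.67 for Rhob, a small GTPase, -0.76 to 0.72 for Sat1, which catabolises polyamines, and -1.42 to 1.46 for Serpina3n, an acute phase inhibitor of proteases. These intervals allow differences of well over 0.5 in either direction, so the changes are not shown to be equal.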

How the data were processed

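Poly(A)-selected, strand-specific RNA-seq of kidney from 12 mice was used, per the labels' protocols. The authors deposited FPKM values as a table for each set, per the file headers. Tools named in the submitters' processing notes are HISAT2, StringTie, cutadapt, FastQC, edgeR and DESeq2, without versions or order. The genome build is not given in the sources used here. Ensembl numbers were given symbols from GENCODE (30212 of 32199 in the PAD4 table, 29690 of 31719 in the IL-33 table). There were 0 columns without a sample. In the IL-33 table the names of wild-type columns hold no genotype, and they were matched by their group. The depth is unknown.

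Tables were joined by gene number (28382 genes in both). The difference was fitted in R 4.3.3 by limma 3.58.1 on log2(FPKM + 1) values (lmFit, eBayes with a trend, 4 group means over 12 libraries), and each own change within its table of 6 libraries (13986 and 14513 genes tested). All p values are two-sided, adjusted p values use the Benjamini-Hochberg method over every gene tested and a threshold of 0.05, and an SE is limma's moderated one. The scale understates changes at low FPKM. Nothing states pairing or separate litters, so p values measure the spread between these libraries. On simulated data with 200 of 13010 genes changed, 95% of differences of size 2 (log2) and 38% of size 1 were recovered, with 9 false calls.

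The gene set, the 36 lists and the tests were chosen with earlier results of these data known, and 3 further lists were written after the present values were seen. Genes were named by a rule: Il33 and Padi4, the 12 largest called differences in each direction at a mean FPKM of 5 or more, the 6 strongest opposite calls in each orientation, the 5 closest shared calls in each direction, up to 3 members of each list, and 15 genes of injury, ferroptosis and neutrophils. Genes named beyond it were chosen after their values were seen, and results of some genes are not reported here. The alternatives were pseudocounts of 0.1 and 0.5, other limits on level, other scalings, no trend, a spread for each table, array weights, a replicate block, colon and lung markers as a covariate, an added threshold of 1 (log2) on the difference, and each library left out. Leaving out 2 libraries together was added after seeing the data.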

Additional observations from a re-analysis of the deposited data

Results flagged for a closer look

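Genes that passed the limit on level in 1 table only could not enter the difference. Of 976 such genes tested in the PAD4 set only, limma called 476, 46 rising and 430 falling. Of the 13010 genes tested in both, 9.2% rose and 6.15% fell in that comparison. Of 1503 tested in the IL-33 set only, limma called 516, 375 rising and 141 falling. In the IL-33 comparison 21.9% of the 13010 rose and 17.7% fell. A gene can pass in 1 table through the group where it is high, so these counts only describe the genes left out. Prap1, a secreted protein of gut and reproductive tract epithelium, fell from 159, 68.4 and 225 FPKM in wild-type to 5.96, 38.5 and 6.26 FPKM in PAD4 knockout libraries, and read 0.304, 0.214 and 0 FPKM and 0.274, 0.287 and 0.201 FPKM in the IL-33 set. The lung genes Sftpc (surfactant protein C) and Scgb1a1 (a secretoglobin of airway club cells) fell from 78.4, 219 and 165 FPKM to 17.4, 60.7 and 10.6 FPKM and from 177, 535 and 266 FPKM to 35.8, 119.9 and 25.5 FPKM without PAD4, and were not listed in the other table. In the labelled IL-33 knockout, Fam151a, a proximal tubule gene, rose from 0.669, 0.864 and 0.829 FPKM to 43.1, 33.04 and 43.1 FPKM. It read 0.0555, 0.0187 and 0.0796 FPKM and 0.0322, 0.0364 and 0.417 FPKM in the PAD4 set. Acmsd, an enzyme of tryptophan breakdown, rose from 0.493, 0.665 and 0.344 FPKM to 26.5, 15.5 and 18.6 FPKM, with 0.0492, 0.0939 and 0.241 FPKM and 0.772, 0.244 and 0.939 FPKM in the PAD4 set. None of these has a test of the difference.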

How the results depend on the processing

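Under every alternative run, all genes called both there and in the reported fit had the same direction. Such fits share most or all libraries, so this was close to given and is no test of the direction. It also leaves out genes that lost their call: with no limit on level 1168 of the 1615 were called again. The number of called genes moved. Genes called higher numbered 1369 with no limit on level, 375 and 155 at a mean FPKM of 2 and 5 or more in both tables, 1229 with median-of-ratios scaling, 1428 with quantile normalization, 2037 with array weights and 311 with colon and lung markers as a covariate. Genes called lower numbered 467 at a mean FPKM of 5 or more, 1877 with median-of-ratios scaling, 1366 with quantile normalization and 1488 with array weights. With the covariate, which separated the genotypes in both sets, 809 of the 1615 were called again. Opposite calls numbered 104 at a mean FPKM of 5 or more, 322 with quantile normalization, 455 with array weights and 0 both with no limit on level and with the covariate. Shared calls numbered 493 at a mean FPKM of 5 or more, 1688 with array weights, 0 with no limit on level and 4 with the covariate.

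Leaving out each library in turn gave 550 to 1128 genes higher, 532 to 1027 lower, 78 to 260 opposite and 327 to 1349 shared. The opposite and shared counts were 112 and 327 without wild-type library 1 of the PAD4 set and 78 and 532 without its wild-type library 3. Without labelled IL-33 knockout library 1, 532 genes were lower, and without its library 3 there were 126 opposite calls. The cause was not tested. With the replicate number as a replicate block 941 genes were higher and 878 lower, with 153 opposite and 734 shared calls, and same-numbered libraries did not deviate together (correlations of -0.145 to -0.046 in the PAD4 set and -0.017 to 0.140 in the IL-33 set).

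The median of the neutrophil list turned to -2.26 and -2.74 at a mean FPKM of 2 and 5 or more, that of uterus and epididymis markers to -1.34 and -0.25, and that of lung markers to -0.40 at 5 or more, as fewer members are tested there. The median over all genes was -0.19 at a mean FPKM of 5 or more, -0.15 with the covariate and -0.11 without wild-type library 3 of the PAD4 set. The depth is unknown, which leaves low genes without an error from counting.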

Other observations

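Targets of NRF2, the factor that turns on antioxidant and detoxifying enzymes, formed a list written after these values had been seen, so its counts are a description. Of 23 tested 13 were called lower and 0 higher, with a median difference of -1.32. In the IL-33 comparison 17 fell and 1 rose, and in the PAD4 comparison 0 fell and 3 rose. Cbr3, a carbonyl reductase, read 5.33, 9.24 and 8.97 FPKM in wild-type libraries against 29.5, 9.84 and 3.39 FPKM in PAD4 knockout libraries, which overlapped. It read 31.6, 62.7 and 41.3 FPKM in wild-type libraries against 1.88, 3.83 and 2.07 FPKM in labelled IL-33 knockout libraries, which did not (difference -4.06 ± 0.71 (SE), limma adjusted p = 0.00225). Srxn1, which repairs peroxiredoxins, read 74.5, 63.7 and 61.96 FPKM and 54.5, 97.1 and 16.1 FPKM in the first set and 434, 296 and 521 FPKM and 26.5, 28.6 and 28.9 FPKM in the second (difference -3.24 ± 0.63 (SE)). Gclm, of glutathione synthesis, differed otherwise: it rose without PAD4 (1.51) and had an IL-33 change of 0.06.

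Targets of PPAR-alpha outside the fatty acid oxidation list, listed at the same point, had 11 of 15 called lower and 0 higher (median -2.15). Acot2, a mitochondrial acyl-CoA thioesterase, read 8.56, 11.2 and 10.7 FPKM in wild-type libraries against 24.98, 12.2 and 9.81 FPKM in PAD4 knockout libraries, which overlapped. It read 61.3, 89.2 and 56.7 FPKM and 9.48, 10.8 and 9.85 FPKM in the second set, far apart (difference -3.12 ± 0.39 (SE)). Angptl4, a secreted inhibitor of lipoprotein lipase, read 54.5, 76.4 and 71.1 FPKM and 6.98, 5.14 and 4.83 FPKM there and 23.7, 28.4 and 27.9 FPKM and 25.4, 23.5 and 6.52 FPKM in the first set (difference -2.66 ± 0.51 (SE)). Cyp4a31 and Vnn1 took the other form, with a rise of 2.12 and 2.00 without PAD4 and an uncalled IL-33 change of -0.30 and -0.47. With colon and lung markers as a covariate 7 of the 15 and 10 of the 23 NRF2 targets were called lower.

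Markers of other tissues differed gene by gene, beside 6.18% of all genes tested called higher and 6.23% called lower. Of 7 colon genes tested 2 were called higher (Car4 and Guca2a) and 2 lower (Krt20 and Lgals4). The Guca2a call was lost with the covariate (limma adjusted p = 0.164) and with no limit on level (0.0550). Of 8 liver genes 2 were called higher and 1 lower, of 5 lung genes 1 higher, of 4 uterus and epididymis genes 2 higher and 1 lower, and of 3 muscle and fat genes 1 lower. Serpina1e, a liver and kidney protease inhibitor with near-identical copies, had the largest positive difference among the liver genes (3.23 ± 0.55 (SE)), and its level is uncertain for that reason. The other liver gene called higher, Serpina1a, lost its call in many alternatives. Among them were a pseudocount of 0.1 (limma adjusted p = 0.0543) and no limit on level (0.0767). Leaving out PAD4 knockout library 2 (0.0709) or any labelled IL-33 knockout library (0.068 to 0.114) lost it too.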
